A study of Mus musculus with 10 samples.

Results

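The voltage-gated sodium channels are the membrane proteins through which sodium enters an excitable cell when its membrane is depolarized. Members of the family were taken as 8 named genes, of which 5 encode alpha subunits (Scn1a, Scn2a, Scn3a, Scn8a and Scn9a) and 3 encode beta subunits (Scn2b, Scn3b and Scn4b). A probe belonged to a member when the RefSeq transcript that the array files give for it carries that gene's symbol. By this rule, 6 of the 8 genes were matched by 10 of the 41174 probes on the array, and the probes of Scn9a and Scn4b were not analysed here.

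An alpha subunit forms the pore and holds the voltage sensors of the channel, whereas a beta subunit is a small membrane protein that modulates gating and takes part in cell adhesion. In the brain, these channels are gathered at the axon initial segment and at the nodes of Ranvier, where they start and propagate the action potential. Scaffold, adhesion and fibroblast growth factor homologous proteins hold the channels there or alter their gating.

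RNA was taken from the left hemibrains of 10 male C57BL/6J mice, 1 per array, and the animal numbers C10-413 to C10-437 name the arrays below. The mice arrived at 3 weeks of age, were housed singly and ate either a diet enriched in n-3 fatty acids from fish oil (FD) or a standard lab diet (SD) for 20 weeks, to an age of 5 months. On these dual dye arrays, Cy-5 marked the RNA of the hemibrain and Cy-3 a second RNA. The sample labels give FD as the diet of every Cy-5 sample while calling the same samples controls, and they give pooled SD hemibrain for Cy-3, whereas the labeling protocol and the methods name a commercial reference RNA. The diet of an array and the identity of the Cy-3 RNA were therefore not settled. FD and SD were not compared. A value below is log2 Cy-5/Cy-3, called the ratio here, so that 1 stands for 2-fold more signal in the hemibrain dye, and it is given by array or as the lowest, median and highest array. Hemibrain is a mixture of cell types, and fewer cells of a type cannot be told apart from less RNA per cell.

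The array of C10-434 stood apart, with 49.6% of its probes well above background in Cy-5, a flag of the scanner software, against 68.2% to 76.9% on the other arrays. In Cy-3 the share was 61.7% on that array and 70.1% to 79.0% elsewhere. Markers of the tissue were present, as all 5 neuronal, 5 astrocyte and 6 oligodendrocyte marker genes with values on every array were more than 2-fold higher in Cy-5 on all 10 arrays. Of 5 pituitary hormone genes and 3 genes of peripheral sensory neurons, 0 were higher by this rule, and the counts were 2 of 5 for microglia, 3 of 5 for choroid plexus, 2 of 2 for erythroid cells and 1 of 5 for skeletal and cardiac muscle. The part of these cell types in the members' ratios was not tested.

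All 6 matched members were higher in Cy-5 than in Cy-3. Each passed 2-fold on all 10 arrays with a Cy-5 signal that was flagged as well above background each time, and 14.5% of the 17659 named genes with values on every array did so. The median over the members' median log2 ratios was 6.05, and that over all named genes was 0.05. These counts describe the ratio against the Cy-3 RNA and carry no test, since the arrays hold no second group of hemibrains with a settled diet. In the members' median, Scn3a and Scn3b enter as measured, at 4.25 and 6.26. The Cy-3 signal of their brightest probes was well above background on 0 arrays, and at the bounds these medians were at least 3.05 and 4.60. With normexp background correction in place of that of the scanner software, 3 of the 6 (Scn2a, Scn8a and Scn2b) passed 2-fold on all 10 arrays. Scn1a and Scn3b then fell short on C10-413 (0.27 and 0.10) and on C10-415 (0.97 and 0.23). Scn3a fell short on C10-413 (0.02), C10-415 (0.08), C10-417 (0.95) and C10-425 (0.54). On C10-413 and C10-415 normexp gave every member its lowest ratios. With background subtraction and an offset of 50, Scn1a and Scn3b were at 4.26 and 3.71 on C10-413 and at 3.32 and 1.65 on C10-415. Scn3a was then at 1.81 on C10-413 and fell short on C10-415, at 0.83. The ratios of the members on every array are shown in the plot of member probes by array.

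**Figure D1:**
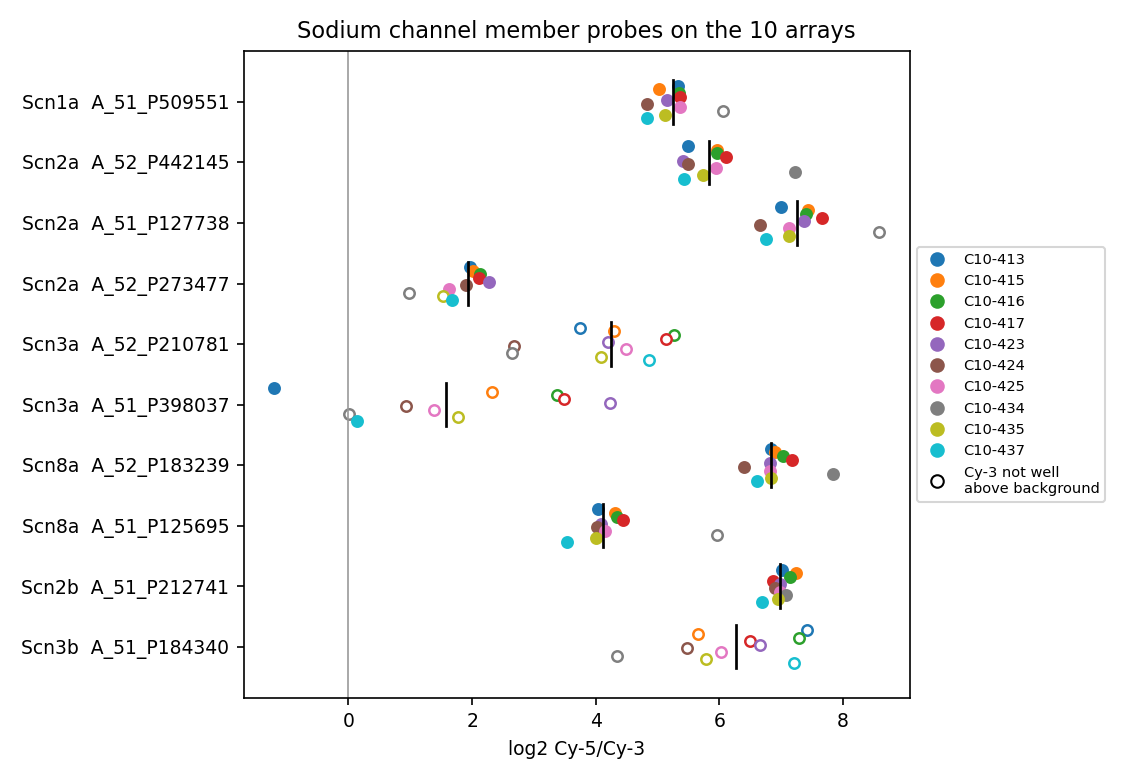
Log2 Cy-5/Cy-3 (horizontal axis) of the 10 member probes (rows, with gene and probe name) on the 10 arrays. Each point is 1 array, open where the Cy-3 signal was not well above background, and the black bar is the median over the arrays. The brightest probe of each of the 6 members lay above 2 on every array, and C10-434 was the highest array for Scn1a, Scn8a and the brighter probes of Scn2a, whereas it was the lowest for Scn3b and for the brightest probe of Scn3a.

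Among the alpha subunits, Scn8a, which encodes Nav1.6, the main channel of mature nodes of Ranvier, had the highest ratio by the brightest probe. Its brightest probe, A_52_P183239, had a lowest log2 ratio of 6.40 on C10-424, a median of 6.83 and a highest of 7.83 on C10-434. On the 9 arrays other than C10-434 it lay between 6.40 and 7.17. The second probe of Scn8a, A_51_P125695, had a lowest ratio of 3.54, a median of 4.12 and a highest of 5.96, again on C10-434. The brighter probe was higher on all 10 arrays, by a median of 2.70 on the log2 scale, and the ranges of the probes did not overlap. Both probes therefore placed Scn8a far above the Cy-3 RNA, with sizes of 113-fold and 17.4-fold at the median.

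Scn2a encodes Nav1.2, a channel of excitatory neurons and of unmyelinated axons, and was measured by 3 probes. The brightest, A_52_P442145, had a lowest log2 ratio of 5.41, a median of 5.84 and a highest of 7.23. A second, A_51_P127738, was higher than the brightest on all 10 arrays, with a lowest ratio of 6.66, a median of 7.25 and a highest of 8.58. The third, A_52_P273477, was far lower, with a lowest ratio of 0.98, a median of 1.93 and a highest of 2.27. The brightest probe exceeded the third on all 10 arrays by a median of 3.89. C10-434 was the highest array for the brighter probes and the lowest for the third, whose signal there was not well above background in either dye.

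Scn1a encodes Nav1.1, a channel of fast-spiking inhibitory neurons, and was measured by A_51_P509551 alone. Its log2 ratio was lowest on C10-424, at 4.82, had a median of 5.24 and was highest on C10-434, at 6.06. The other 9 arrays lay within 0.54 of each other, so that C10-434 alone set the upper end of the range. On that array the Cy-3 signal of the probe was not well above background, and with Cy-3 set to the dimmest signal that was, the ratio there was at least 4.50, so that the place of C10-434 among the arrays is not settled for Scn1a.

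Scn3a encodes Nav1.3, a channel known for its higher expression in the embryonic and neonatal brain. Its brightest probe, A_52_P210781, had a Cy-5 signal well above background on all 10 arrays and a Cy-3 signal above it on 0. The log2 ratio as measured had a lowest value of 2.65, a median of 4.25 and a highest of 5.26, but the Cy-3 signal gives only a bound. Against the dimmest Cy-3 signal that was well above background on each array, the hemibrain signal was at least 8.25-fold higher at the median, and at least 4.21-fold higher on the array where this bound was lowest. The second probe, A_51_P398037, was dimmer, being well above background on 6 arrays in Cy-5 and 2 in Cy-3. Its log2 ratio ran from -1.20 on C10-413 to 4.23 on C10-423, with a median of 1.58, so that no direction held over all arrays.

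Of the beta subunits, Scn2b, whose product is joined to the alpha subunit by a disulfide bond, had the smallest range over the 10 arrays. Probe A_51_P212741 had a lowest log2 ratio of 6.69 on C10-437, a median of 6.97 and a highest of 7.25 on C10-415. It was well above background in both dyes on all 10 arrays, and C10-434, at 7.07, lay inside the range of the other arrays. The range of 0.56 over the 10 arrays was below those of the brightest probes of the other members, which were 1.23 for Scn1a, 1.43 for Scn8a, 1.81 for Scn2a, 2.61 for Scn3a and 3.07 for Scn3b. Without C10-434 the range of Scn1a was 0.54, below that of Scn2b, and with normexp Scn2b ranged over 3.47 and Scn8a over 2.24. The lower ends with normexp were on C10-413, at 2.88 for Scn2b and 4.81 for Scn8a.

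Scn3b, which encodes a beta subunit that associates with the alpha subunit without a disulfide bond, was measured by A_51_P184340. Cy-5 was well above background on all 10 arrays and Cy-3 on 0. The measured log2 ratio had a lowest value of 4.35 on C10-434, a median of 6.26 and a highest of 7.42 on C10-413. Against the dimmest Cy-3 signal well above background, Scn3b was at least 24.3-fold higher at the median, and at least 4.82-fold higher on C10-434, where the bound was lowest.

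The order of the medians was compared among the members with Cy-3 well above background on at least 9 arrays. Scn2b exceeded Scn8a on 8 of 10 arrays by a median of 0.14, and their ranges overlapped. This order turned with the background correction, as Scn2b exceeded Scn8a on 0 of 10 arrays with normexp (medians of 5.83 and 6.49) and on 2 of 10 with background subtraction and an offset of 50 (medians of 6.48 and 6.76). Scn8a exceeded Scn2a on all 10 arrays by a median of 1.07, and Scn2a exceeded Scn1a on all 10 by a median of 0.61, although the ranges over the arrays overlapped in both pairs. The overlap came from C10-434. On the other arrays Scn8a was at least 6.40, Scn2a lay between 5.41 and 6.10, and Scn1a was at most 5.36. This order held for the brightest probes, since the second probe of Scn2a lay above the brightest of Scn8a at the median and the second probe of Scn8a lay below Scn1a. A ratio compares each gene with the Cy-3 RNA and does not rank the amounts of the channels in hemibrain.

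The promoters of Scn2b and Scn8a are shown because these members had the highest ratios by the brightest probe among those with Cy-3 well above background on all arrays, and they differ in base composition. The sequences are those of RefSeq on assembly GRCm38.p6, from 250 bases before to 50 bases after the annotated start, on the plus strand at chr9:45117626-45117925 for Scn2b and chr15:100870395-100870694 for Scn8a, with each CG dinucleotide in capitals.
Scn2b promoter: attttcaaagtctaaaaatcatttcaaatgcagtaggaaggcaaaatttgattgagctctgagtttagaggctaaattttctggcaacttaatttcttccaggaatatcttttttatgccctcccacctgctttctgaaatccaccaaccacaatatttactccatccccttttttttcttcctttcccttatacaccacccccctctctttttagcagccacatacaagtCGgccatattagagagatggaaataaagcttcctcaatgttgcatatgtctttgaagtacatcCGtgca
Scn8a promoter: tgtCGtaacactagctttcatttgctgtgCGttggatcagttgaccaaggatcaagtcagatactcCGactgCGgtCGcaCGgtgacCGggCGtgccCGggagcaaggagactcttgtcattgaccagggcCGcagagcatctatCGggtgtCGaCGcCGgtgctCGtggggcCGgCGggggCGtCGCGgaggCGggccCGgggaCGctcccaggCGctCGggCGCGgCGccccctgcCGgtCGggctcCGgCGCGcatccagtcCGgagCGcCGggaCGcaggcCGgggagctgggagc
The Scn8a window holds 38 CG dinucleotides and is 70.0% G and C, and 4.95% of the 32851 promoter windows of this length hold at least as many. The Scn2b window holds 2 and is 38.3% G and C, and 14.1% of windows hold fewer. The median window holds 7. A second annotated Scn8a promoter holds 12. The printed Scn8a window lies inside the annotated gene, which starts at chr15:100869863.

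Windows were given for 6 of the 8 members, 8 in all, with none for Scn3a or Scn3b. On either strand, TATAAA was found in 1 of the 8 windows, belonging to Scn2a, and in 13.6% of all windows. The Sp1-type sequence GGGCGG was found in 0 of 8 and in 35.7% of all windows. TTCAGCACC, the core of the element bound by the neuronal repressor REST, was found in 0 of 8 and in 0.371% of all windows. These searches describe the letters in the windows only.

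Further subunit genes, Scn4a, Scn7a, Scn10a and Scn11a, are known mainly from skeletal muscle or from peripheral neurons and glia, and 0 of these 4 passed 2-fold higher on all 10 arrays, beside 14.5% of all named genes. Scn4a, of skeletal muscle, had a median log2 ratio of 0.51 and a range of -0.01 to 0.82. Scn10a, of sensory neurons, had a lowest ratio of -1.66, a median of -0.88 and a highest of -0.42, below 0 on every array. Its Cy-3 signal was well above background on all 10 arrays and its Cy-5 signal on 6. Cy-5 was not so on C10-434, where the ratio was lowest. Scn11a, also of sensory neurons, was well above background on 3 arrays in Cy-5 and 1 in Cy-3, with a median of 1.85. Scn7a, an atypical sodium channel gene, was not well above background in either dye on any array.

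Among 12 genes whose products anchor the channels or bind them, 10 had values on every array, of which 6 passed 2-fold higher on all 10 arrays and 0 lower, beside 14.5% and 15.9% of all named genes. Fgf12, which encodes a fibroblast growth factor homologous factor that binds the channel, was highest, with a lowest log2 ratio of 6.83, a median of 7.93 and a highest of 9.35. Sptbn4, which encodes the beta-IV spectrin of the axon initial segment, was nearest the median of the list, at 3.15 with a range of 2.84 to 3.46. Fgf11 was lowest, with a median of 0.03 and a range of -0.64 to 0.21, and no partner gene had a median below 0. The list median was 3.30, against 6.05 for the members, both from ratios as measured. The plot of subunits and partners shows that the members and the partners overlapped.

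**Figure D2:**
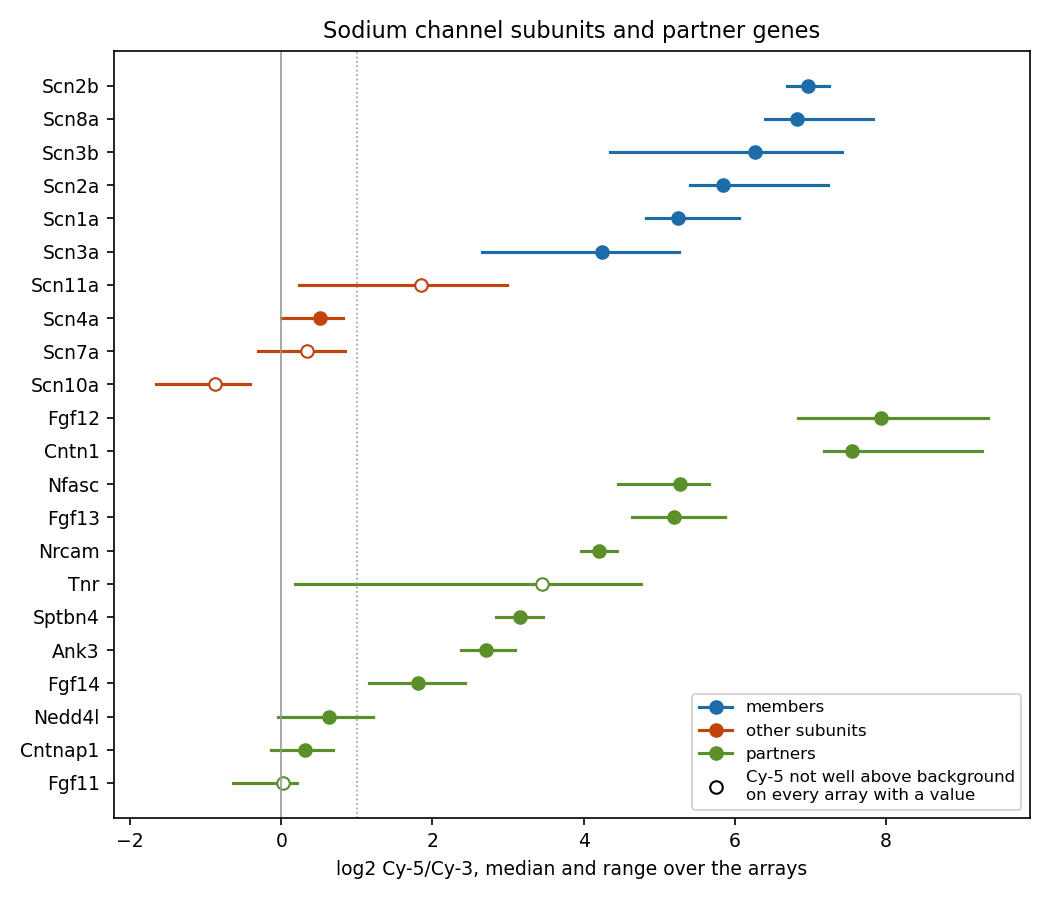
Median log2 Cy-5/Cy-3 (points) and range over the arrays (lines) of the 6 matched members, 4 other subunit genes and 12 partner genes, each by its brightest probe. The solid vertical line marks equal signal and the dotted line 2-fold, and open points mark genes whose Cy-5 signal was not well above background on at least 1 array with a value. The members run from a median of 4.25 (Scn3a) to 6.97 (Scn2b).

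Each member was also set against its own median, to describe how the family varied between animals. The members differed from each other most on C10-434, where Scn2a lay 1.39, Scn8a 1.00 and Scn1a 0.81 above their medians, Scn2b lay 0.10 above, and Scn3a and Scn3b lay at -1.60 and -1.91. The median deviation of the members there was 0.46, and that of 851 other genes with a median log2 ratio above 4 was 0.39. On C10-416 all 6 members lay above their medians, with a median deviation of 0.18 against 0.10 for those genes. On C10-424 all 6 lay below, with a median deviation of -0.42 against -0.20. The middle 50% of those genes ran from -0.06 to 0.29 on C10-416 and from -0.38 to -0.04 on C10-424. Most of them thus also lay below their medians on C10-424. The median deviation of the members had the same sign as that of the other genes of high ratio on these 3 arrays, although Scn3a and Scn3b had the opposite sign on C10-434. The counts of members above their medians, 6 on C10-416 and 0 on C10-424, held with loess or median centring. With background subtraction and an offset of 50 they were 5 and 3, and with normexp 6 and 4, where the median deviation on C10-424 turned to 0.04. On C10-434 the median deviation was -0.05 with background subtraction and 0.02 with normexp. The Cy-3 signals of Scn1a, Scn3a and Scn3b were not well above background on that array. With background subtraction these genes lay there within the range of the other arrays.

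**Figure D3:**
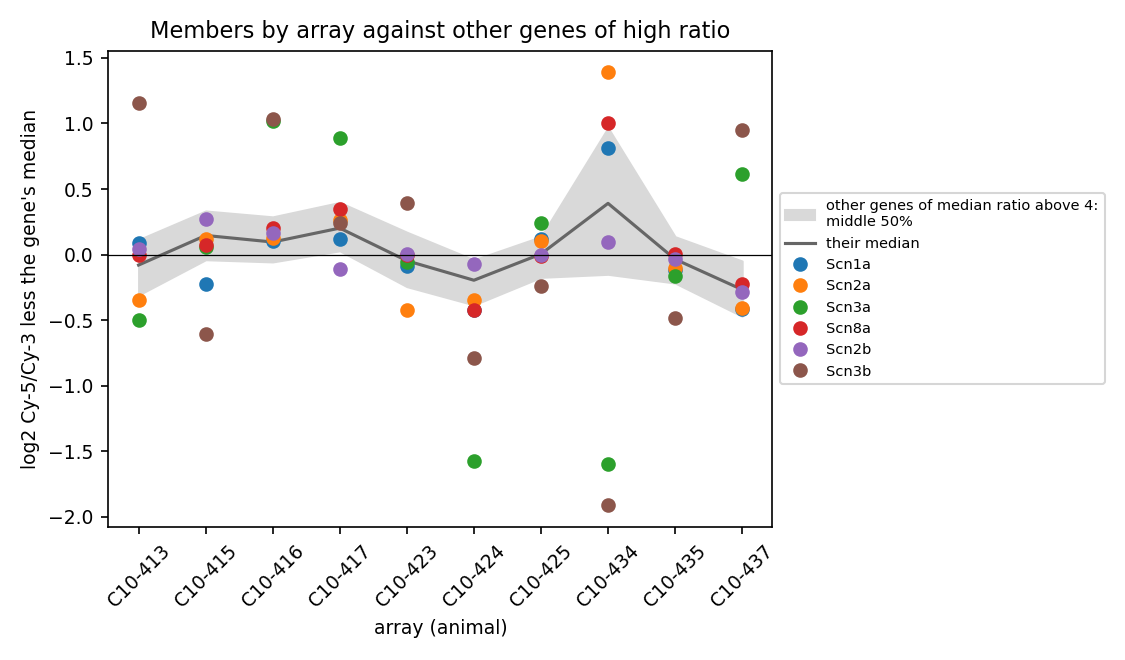
Deviation of each member's log2 Cy-5/Cy-3 from its own median (vertical axis) on each array (horizontal axis), with 1 point per member. The grey line is the median, and the band the middle 50%, over 851 other genes with a median log2 ratio above 4. Scn3a and Scn3b, whose Cy-3 signal was not well above background, spread most, and on C10-424 no member lay above its median.

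The genes whose deviations over the 10 arrays were most like the mean of the members were Slc24a4, which encodes a sodium, potassium and calcium exchanger, with a Pearson correlation of 0.85, Cx3cr1, which encodes the fractalkine receptor of microglia, with 0.78, and Cnr1, which encodes the type 1 cannabinoid receptor, with 0.77. They were chosen as the highest of 10530 genes well above background in both dyes on all arrays, over which the median correlation was -0.05. Without C10-434 the values were 0.84, 0.78 and 0.78. These correlations rest on 10 arrays and on a mean to which the spread of Scn3a and Scn3b contributes, and they carry no test.

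Each of 2 slides, out of 4 in all, carried 4 arrays, and these slides were compared to describe how far the members differed between them. Slide, labeling, animal and diet cannot be told apart in this comparison, since the diet of each array was not settled. Of 40299 probes, 30 (0.0744%) were called at an adjusted p under 0.05 by limma with Benjamini-Hochberg adjustment over all probes, and 0 of the 10 member probes were. At an unadjusted p under 0.05, 4 of the 10 member probes passed, beside 10.0% of all probes.

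For the brightest probes of the members with Cy-3 well above background on at least 9 arrays, the means of the slides lay within 1 SE of each other. Scn8a (A_52_P183239) had a mean log2 ratio of 6.98 on the first slide and 6.97 on the second, a difference of -0.01 ± 0.29 (SE, adjusted p = 0.998 by limma, 4 arrays per slide). For Scn2b the difference was -0.08 ± 0.15, for Scn1a 0.12 ± 0.26 and for the brightest probe of Scn2a 0.24 ± 0.36. The adjusted p of these 3 probes lay between 0.960 and 0.980. Without C10-434, which is on the second slide, the differences were -0.30 for Scn8a, -0.12 for Scn2b, -0.12 for Scn1a and -0.14 for Scn2a, so that the sign turned for Scn1a and Scn2a. The second probe of Scn2a, A_51_P127738, differed by -0.09 ± 0.37 (adjusted p = 0.990 by limma) and by -0.50 without C10-434 (adjusted p = 0.369 by limma). The comparison does not show that the levels were equal, as differences several times the SE also went uncalled. The dimmer Scn3a probe, A_51_P398037, differed by -2.33 ± 0.46 and was not called (adjusted p = 0.109 by limma).

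The means of the dim probes lay further apart, although none passed the adjusted threshold. Both probes of Scn3a had the lower mean on the second slide, A_52_P210781 by a log2 difference of -1.25 ± 0.46 (adjusted p = 0.397 by limma) and A_51_P398037 by -2.33 ± 0.46 (adjusted p = 0.109 by limma). Scn3b differed by -1.12 ± 0.43 (adjusted p = 0.412 by limma) and the third probe of Scn2a by -0.62 ± 0.21 (adjusted p = 0.337 by limma). The arrays of the slides did not overlap for the dimmer Scn3a probe and the third Scn2a probe, 2 of the 10 member probes, beside 5.65% of all probes. Without C10-434 the differences were -0.97 and -1.99 for the Scn3a probes, -0.77 for Scn3b and -0.44 for the third Scn2a probe. With background subtraction and an offset of 50 the differences of A_52_P210781 and Scn3b turned to 0.24 and 0.29, and those of the dimmer Scn3a probe and the third Scn2a probe were -0.40 and -0.15. With normexp these 4 differences were 0.10, 0.10, -0.24 and -0.08. The part of Cy-3 signals near background in these differences was not tested.

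**Figure D4:**
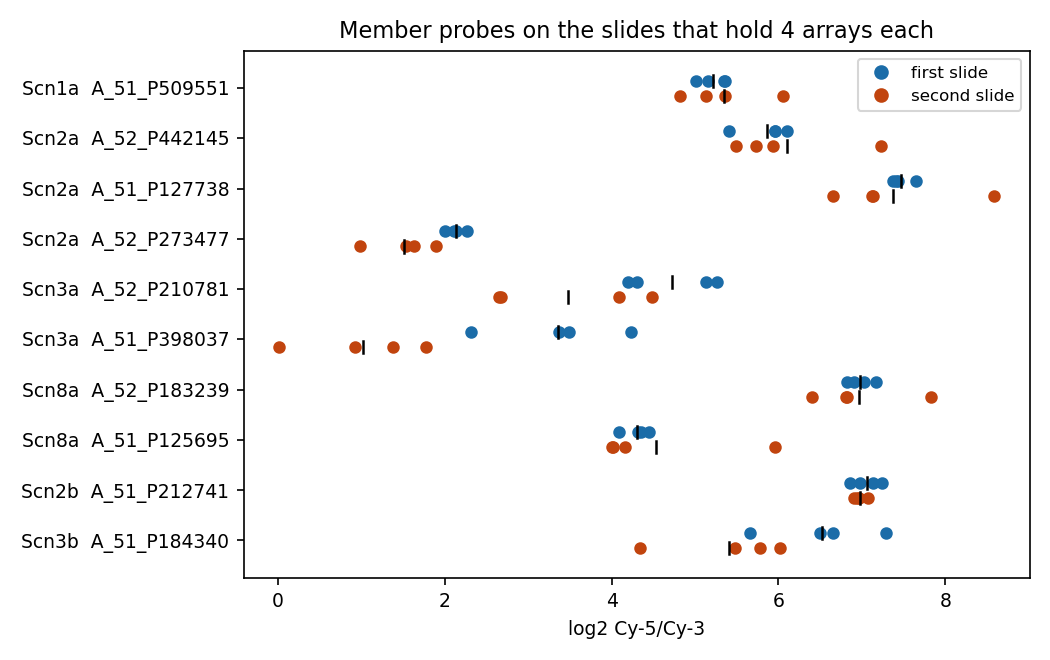
Log2 Cy-5/Cy-3 (horizontal axis) of the 10 member probes on the slides that held 4 arrays each, first slide in blue and second in red. Points are arrays and black bars the means of 4. The dimmer probe of Scn3a and the third probe of Scn2a do not overlap between the slides, and no member probe passed the adjusted threshold.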

How the data were processed

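RNA from 10 hemibrains was hybridized to dual dye Agilent arrays. The authors scanned the slides and deposited the output of Feature Extraction 10.10.1.1 for each array: intensities of each dye on a linear scale, already background-corrected and dye-normalized (linear and lowess) in the processed signals, a log10 ratio per spot, and flags. The authors also deposited a table of log2 ratios per probe, which correlated with the log ratio of the same array at 0.997 or more; its direction was Cy-5 over Cy-3, and its columns had medians between -0.05 and 0.10.

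Here log2 of the processed Cy-5 over Cy-3 intensity was computed without control spots or outlier-flagged spots, and the spots of a probe were averaged (41174 probes of 45018 spots per array, 0 saturated). The flag for a signal well above background had to be set on at least 0.5 of a probe's spots. Probe names came from RefSeq accessions (assembly GRCm38.p6), whose coordinates were used for the promoter windows alone, and 27198 probes (66.1%) matched 18539 genes. The brightest probe on average stood for a gene. For the bounds alone, the average log intensities of the dyes were first quantile-normalized between arrays by limma, which leaves each measured ratio as it was. On these normalized signals a bound took, on each array, the higher of the dimmest Cy-3 signal well above background and the Cy-3 signal of the probe itself. Bounds without this step were not computed. The slides were read from the file headers.

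The members, gene lists and rules were chosen with earlier results of these data known. All members with all their probes were named, as were 4 other subunits, the highest, lowest and middle partner genes and the 3 genes nearest in deviation. Some results of the rule are not reported here. The slide comparison used limma 3.58.1 in R 4.3.3, on probes with values on all 8 arrays, and its script was tested on simulated data. Other values used Python 3.11.15. Alternatives were loess (span 0.3), median centring, normexp and plain subtraction (floor 0.5) with an offset of 50, each followed by loess, the deposited table, the mean of all probes, a 1.5-fold threshold, another detection flag, a filter on dim probes, and leaving out arrays. Normexp used median signals, as the files carry no mean signals. Few arrays and low signals over background limit the precision.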

Additional observations from a re-analysis of the deposited data

Results flagged for a closer look

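The highest array stood further from the others than the gap test allows for 10 values in 4 of the 11 probes or measures tested. Chance would flag about 1 in 20 of independent tests. All 4 were on the array of C10-434, which also had the dimmest Cy-5 signal, so they are not independent of each other. For Scn1a the log2 Cy-5/Cy-3 was 6.06, against 4.82 to 5.36 on the other arrays. For Scn2a it was 7.23 by A_52_P442145, against 5.41 to 6.10, and 8.58 by A_51_P127738, against 6.66 to 7.65. For Scn8a it was 5.96 by A_51_P125695, against 3.54 to 4.45.

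In 3 of these, all but A_52_P442145 of Scn2a, the Cy-3 signal on C10-434 was not well above background. With Cy-3 at its bound the ratio there was at least 4.50 for Scn1a, at least 7.81 for A_51_P127738 and at least 4.47 for A_51_P125695. The place of C10-434 is therefore not settled for Scn1a, whereas the other bounds lay just above the other arrays. For A_51_P125695 the bound of 4.47 stood against 4.45, and the bounds rest on signals normalized between arrays. For A_52_P442145, C10-434 stayed highest with background subtraction and an offset of 50, at 6.62 against 5.27 to 5.86. For Scn1a by that correction C10-434 was 3.85, within the range of 3.32 to 4.26 of the others. The part of the dim Cy-5 signal in these values was not tested.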

How the results depend on the processing

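With the alternatives run, every member's median log2 ratio stayed above 0. Loess moved Scn2b to 7.18, and raised the median of all probes by 0.10 to 0.27 on an array. Normexp gave 3.57 for Scn1a, 5.29 for Scn2a, 1.08 for Scn3a, 5.83 for Scn2b and 1.97 for Scn3b, and 3 members (Scn2a, Scn8a and Scn2b) then passed 2-fold on every array. Plain subtraction with an offset gave 3.95 for Scn1a, 1.41 for Scn3a, 6.48 for Scn2b and 2.76 for Scn3b, and 5 members passed. The mean of all probes gave 4.96 for Scn2a, 2.93 for Scn3a and 5.47 for Scn8a. An offset of 50 lowers the ratio of any probe whose Cy-3 signal is near it. Loess, median centring, the mean of all probes and the other detection flag kept 6 members past 2-fold. The deposited table did too, but it held the same ratios for the members. Leaving out C10-434 or using a 1.5-fold threshold could not lower this count, as all 6 already passed 2-fold on every array.

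Between the slides, 0 member probes were called in any of the 14 alternatives, and their lowest adjusted p was 0.098 by limma. Of all probes, 30 were called (14 higher on the second slide), 30 (10 higher) with loess, 0 with normexp, 0 with plain subtraction and an offset, and 68 (13 higher) among the 19481 probes whose Cy-5 signal was well above background. Leaving out 1 array gave 0 to 18 calls, with 2 without C10-415, 18 without C10-423 and 0 without any of the others. The cause was not tested. No paired analysis was possible because the labels give no groups that share replicate numbers.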
